A study of Mus musculus with 4 samples.

Results

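SR proteins and heterogeneous nuclear ribonucleoproteins (hnRNPs) are the best known families of splicing regulators, and the m6A peaks called over their genes in mouse brain are described here. The genes were taken from the GENCODE M21 annotation of the mm10 genome as the protein-coding genes whose symbols begin with Srsf and a digit or with Hnrnp. They numbered 31 of 21866 protein-coding genes, 11 of them Srsf genes (Srsf1 to Srsf7 and Srsf9 to Srsf12) and 20 Hnrnp genes. The rule used only the symbols and no measured value, but it was set with earlier results of these data known.

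The series profiled whole brain of 4-week-old mice with m6A-seq, in which RNA fragments carrying N6-methyladenosine are pulled down with an antibody and sequenced beside the RNA that went into the pull-down. It held 2 m6A immunoprecipitation (IP) samples and 2 matching input samples. The sample sheets give the strain as C57BL/6J, whereas the series' design names Prrc2a flox/flox animals, in which the Prrc2a gene carries loxP sites. No Cre driver was named in the sample labels and there was no second genotype or treatment, so each comparison below is between genes or between the 2 replicates. A peak is a stretch of genome that the authors' caller found enriched in an IP sample over its input, and its fold enrichment is that linear ratio. One list of 38533 peaks was used for replicate 1 and one of 30134 peaks for replicate 2. The lists hold positions and fold enrichments without read counts, p-values or strand, so the depth behind a value is unknown. No RNA abundance was used, so the part that the level of each mRNA or of its unspliced precursor has in these calls was not tested. For the same reason the tissue label could not be checked against marker genes.

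SR proteins bind exonic sequences through RNA recognition motifs and recruit the splicing machinery through tails rich in arginine and serine, whereas hnRNPs coat nascent transcripts and often oppose the use of splice sites. Many genes of both families limit their own output by splicing in a poison exon, a cassette exon that carries a premature stop codon and sends the mRNA to nonsense-mediated decay (NMD). N6-methyladenosine is written on nascent RNA in a short sequence context with the core GGAC, and in mRNAs it is known for its accumulation in long exons and around stop codons. Several proteins encoded by these genes, Hnrnpa2b1, Hnrnpc and Srsf3 among them, have themselves been linked to the reading of this mark.

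Peaks were called over nearly all genes of both families, and the 2 families differed in how often the replicates shared them. Peaks of the 2 lists were taken as shared when they overlapped by at least 1 bp, and exons were those of any annotated transcript of the gene, transcripts with a retained intron included. A shared peak over an annotated exon was found in 27 of the 31 genes (87.1%), against 45.5% of all protein-coding genes. All 20 Hnrnp genes had one, whereas 7 of 11 Srsf genes (63.6%) did. Among other gene groups set beside them, the share was 82.1% of 67 other splicing factor genes, 67.3% of 55 translation initiation factor genes and 34.7% of 98 cytosolic ribosomal protein genes. No SR or hnRNP gene was without a peak in both lists, against 9457 of the 21866 protein-coding genes.

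In 4 of the 31 genes, all of them Srsf genes, peaks were called but none was shared between the lists. Over all protein-coding genes this held for 2461 of 21866. Srsf2, which encodes a classical exonic enhancer-binding protein, had no peak in replicate 1 and 2 peaks in replicate 2, over exon 2 with a fold enrichment of 1.42 and over exon 1 with 1.34. Srsf3, the smallest of the classical SR proteins, had 1 peak in replicate 1 at 2.83 and none in replicate 2. Srsf9 had 1 peak in each list, in the 5′ UTR in replicate 1 (3.32) and in an intron in replicate 2 (1.66). Srsf10, an SR protein that represses splicing when dephosphorylated, had 2 peaks in replicate 1 (3.52 and 2.59) and none in replicate 2. None of these 4 genes therefore had a position called in both replicates, and the intronic peaks among them are described with the poison exons.

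Over all 31 genes, replicate 1 had 111 peaks, of which 79 (71.2%) were shared, and replicate 2 had 91 peaks, of which 80 (87.9%) were shared. The corresponding shares over the peaks of all protein-coding genes were 67.8% and 76.8%. The bases common to overlapping peaks formed 81 shared intervals, 66 in Hnrnp genes and 15 in Srsf genes. Per kb of representative mRNA, all 31 genes together had 0.748 shared intervals, against 0.330 over all protein-coding genes, and the genes with a shared interval had 0.813, against 0.580. Among genes with a shared interval, the median number was 2 both in these families and over all genes.

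Shared intervals were spread unevenly within the families. Hnrnpm, a splicing regulator that binds GU-rich RNA, had the most with 10, followed by Hnrnpul2 with 8 and by Hnrnpu and Hnrnpul1 with 6 each. Hnrnpu, also known as scaffold attachment factor A, and its relatives Hnrnpul1 and Hnrnpul2 thus took 3 of the 4 highest places. Hnrnpa3 and Srsf11 had 5 each. Of the other genes with shared intervals, 1 had 4, 3 had 3, 11 had 2 and 6 had 1.

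The plot of matched peaks by gene shows the fold enrichments of both replicates. A matched pair is a peak of each list that are each other's largest overlap, and the members had 78 such pairs. Their fold enrichments ran from 1.16 to 7.42 in replicate 1 and from 1.24 to 4.06 in replicate 2. The value was higher in replicate 1 in 68 of 78 pairs (87.2%, against 78.3% of 20996 pairs of all protein-coding genes), and the median ratio of replicate 1 to replicate 2 was 1.47, against 1.29.

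**Figure D1:**
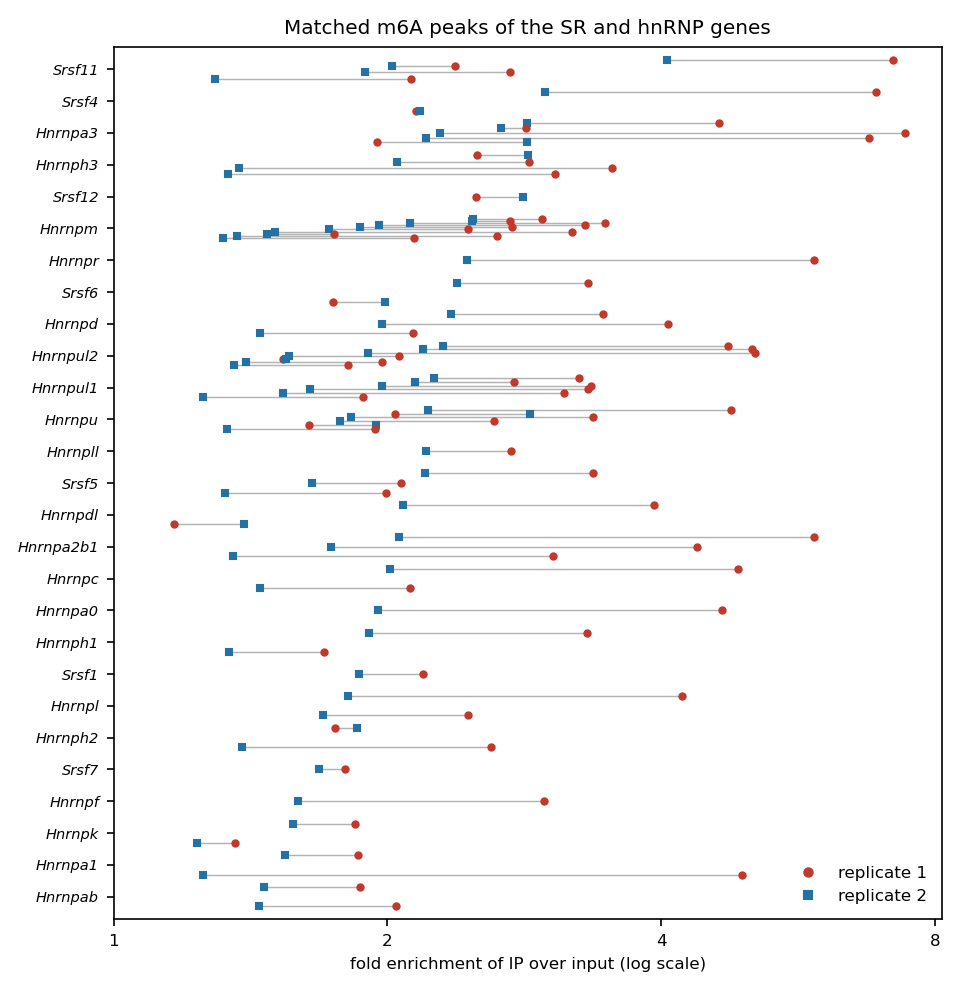
Fold enrichment of IP over input (log scale) for the 78 matched peak pairs of the 27 genes that have one, by gene, with a line joining replicate 1 (circle) and replicate 2 (square) of each pair. Genes are ordered by their strongest pair, Srsf11 at the top, and replicate 1 lies to the right in 68 pairs.

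Although more of these genes had a shared peak, their peaks were lower than those of other genes, more clearly in replicate 2. The median fold enrichment of the members' pairs was 2.74 in replicate 1 and 1.86 in replicate 2, against 2.98 and 2.30 over all pairs. Both values reached 2 in 28 of the 78 pairs (35.9%), against 61.5% of all pairs. The other gene groups were also below that share, with 42.6% of pairs of other splicing factor genes, 46.5% for translation initiation factor genes and 37.5% for ribosomal protein genes. Hnrnp pairs had medians of 2.85 and 1.82 and Srsf pairs of 2.28 and 2.01, so the order of the 2 families was opposite in the 2 replicates.

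**Figure D2:**
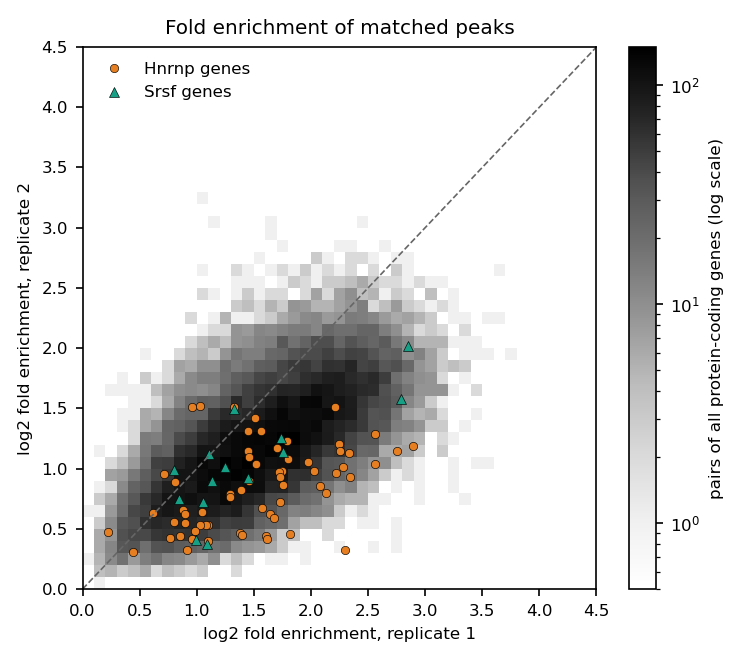
Log2 fold enrichment in replicate 1 (x) and replicate 2 (y) of matched peaks, with pairs of all protein-coding genes as grey density (log scale) and the members' pairs as points. The dashed line marks equal values, and most members' points lie below it and in the lower part of the grey area, with medians of 2.74 and 1.86 on the linear scale.

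Each gene with a pair was also ranked among 9939 genes by the lower of both fold enrichments of its strongest pair. The 27 genes had a median percentile of 28.2, 24 of them were below the 50th percentile, and 13 were at or below the 25th. The lower value reached 2 in 17 of the 27 genes (63.0%), against 80.6% of all genes with a pair. The lowest rank was that of Hnrnpab at the percentile 3.34, and the highest that of Srsf11 at 93.8.

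Srsf11, a serine-rich factor known for its role in neuronal microexons, had its strongest pair over its last exons, 7.19 in replicate 1 (chr3:158011937-158012982, minus strand) and 4.06 in replicate 2 (chr3:158011932-158012527). Srsf4, a long SR protein, followed with 6.90 (chr4:131900127-131901634, plus strand) and 2.98 (chr4:131900082-131901585) over exon 6, which codes for its arginine and serine-rich tail. Hnrnpa3, a relative of Hnrnpa1 and Hnrnpa2b1, had 4.64 and 2.85 at chr2:75664951-75665468 (plus strand). These were the only 3 genes above the 50th percentile.

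The Srsf4 interval also touches an exon of the annotated gene Gm12992, and without strand in the lists its reads cannot be assigned to 1 of them. The same holds for 6 other intervals, which touch exons of Gm24574 (in Hnrnpa3), Gm17092 (in Hnrnpd), Rmi1 (in Hnrnpk) and AC129217.1 (3 intervals of Hnrnpul2). Hnrnpa3 had 2 further pairs with larger values in replicate 1 alone, 7.42 against 2.28 over exon 8 and 6.76 against 2.21 further upstream. In these pairs the replicates differed by more than in the pair that set the rank.

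The next genes in rank lay close together. The pair of Hnrnph3, a factor that binds G-runs, had 2.51 in replicate 1 and 2.86 in replicate 2. Srsf12, a small SR protein, had 2.51 and 2.82 over the coding part of exon 3, and Hnrnpm had 2.96 and 2.49 over exon 6. In these 3 genes the replicates differed little.

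Hnrnpr, known for its role in motor axons, had 5.89 and 2.45 over exon 11. Srsf6 had 3.33 and 2.39 in the 5′ UTR, and Hnrnpd, also called AUF1 and known for binding AU-rich elements, had 3.45 and 2.35. Hnrnpul2 had 4.74 and 2.30 in the 3′ UTR. In these 4 genes replicate 1 was the higher, and their ranks, set by replicate 2, lay between the percentiles 33.0 and 40.2.

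The coding sequence under the pairs of Srsf12 and Hnrnpm, which had similar values in both replicates, is shown because each holds a single GGAC core, given in capitals (mm10, strand of the gene, 5′ to 3′). The Srsf12 stretch is the coding part of exon 3 within the shared interval (chr4:33231060-33231290, plus strand) and the Hnrnpm stretch is the whole of exon 6 (chr17:33666494-33666685, minus strand).
Srsf12 exon 3: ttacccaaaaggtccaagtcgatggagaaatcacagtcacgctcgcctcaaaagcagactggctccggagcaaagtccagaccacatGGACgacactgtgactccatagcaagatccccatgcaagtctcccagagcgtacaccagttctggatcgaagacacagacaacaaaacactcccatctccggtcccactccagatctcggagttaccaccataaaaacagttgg
Hnrnpm exon 6: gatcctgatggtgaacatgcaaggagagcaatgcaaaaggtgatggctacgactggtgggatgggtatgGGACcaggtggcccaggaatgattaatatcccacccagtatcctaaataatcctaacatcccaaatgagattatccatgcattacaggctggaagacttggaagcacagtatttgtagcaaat

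The strongest coding peaks of Srsf11, Hnrnpa3 and Hnrnpr also held GGAC, and the exonic core nearest the middle of each shared interval is shown with 10 bases on each side. The adenosine lies in exon 12 of Srsf11 (chr3:158012407-158012431, minus strand), exon 9 of Hnrnpa3 (chr2:75665086-75665110, plus strand) and exon 11 of Hnrnpr (chr4:136339725-136339749, plus strand). In each the core is followed by A or C, so that none of these 3 is GGACT, the commonest form of the m6A motif. The replicate 1 peak of Srsf11 also held a GGACT, in intron bases under a second peak of replicate 2 (chr3:158012676-158012982, 1.52). The Srsf4 interval, second in rank, held GGACT in the 3′ UTR part of exon 6 (chr4:131901479-131901503, plus strand). Unlike the other cores shown, this site lies far from the middle of its interval, at 635 nt. The 5 GGAC cores in the coding part of exon 6 lie nearer to the middle.
Srsf11: agaaagataaGGACaaagaaagaag
Hnrnpa3: atcaaattatGGACccatgaagggg
Hnrnpr: ggcacctttgGGACcaccaagaggc
Srsf4: tcctgtttctGGACTtaccaacgtt

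The members' intervals lay mostly in coding sequence. A representative transcript, the protein-coding one with the longest coding sequence (CDS), was used to place each interval by its midpoint, and 60 of the 81 intervals had their midpoint in an exon of it. Of these 60, 8 (13.3%) lay in the 5′ UTR, 50 (83.3%) in the CDS and 2 (3.33%) in the 3′ UTR. Over all protein-coding genes the shares were 9.26%, 61.8% and 28.9% of 19717 intervals. The 2 intervals in a 3′ UTR were those of Hnrnpul2 and of Hnrnpa1. Another 3 shared intervals, of Srsf1, Hnrnpa3 and Hnrnpu, lay over exons of other transcripts, outside the representative one. They are not among the 60, so the shares by region leave them out. At least those of Hnrnpa3 and Hnrnpu lay past the 3′ end of the representative transcript, so the 3′ UTR share depends on the transcript chosen. The 3′ UTR took up 55.0% of the mRNA length of the members with a shared peak and 42.5% over all genes with one, and without Hnrnpr, whose 3′ UTR of 19419 nt is the longest among them, it took up 45.2%. A midpoint lay within 200 nt of the stop codon in 7 of 60 intervals (11.7%), against 22.9% over all genes. The families lay on opposite sides of that value, with 3 of 10 intervals in Srsf genes (30.0%) and 4 of 50 in Hnrnp genes.

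**Figure D3:**
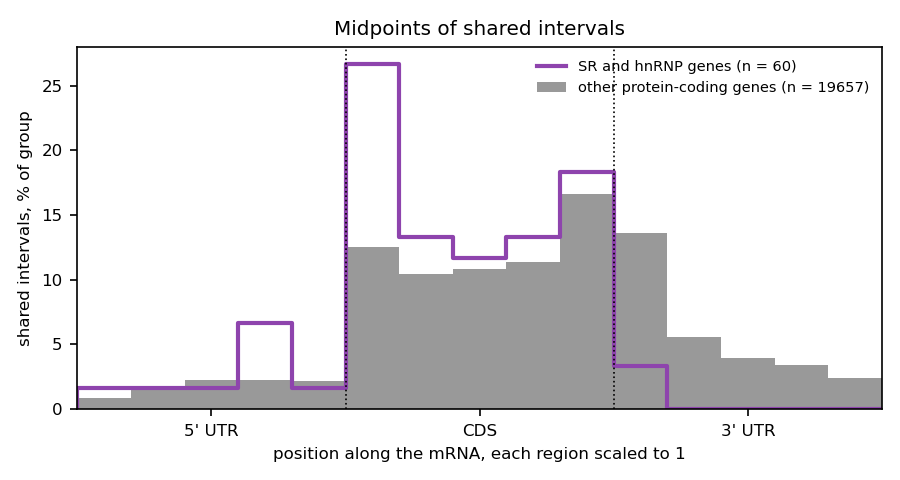
Midpoints of shared intervals along the mRNA, each region (5′ UTR, CDS, 3′ UTR) scaled to the same width and cut into 5 bins, as the percentage of the 60 intervals of SR and hnRNP genes (line) and of 19657 intervals of other protein-coding genes (bars). The members' line is highest in the first bin of the CDS and runs at 0 past the first bin of the 3′ UTR.

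Within the coding sequence, the first of 5 equal bins held 16 intervals (26.7% of the 60 placed), the last 11 (18.3%) and the 3 between them 7 or 8 each. Over all genes the first bin held 12.6% of intervals and the last 16.6%. Counted by exon, 24.0% of the 75 intervals that touched an exon of the representative transcript touched exon 1 and 24.0% touched the last exon, against 16.8% and 46.5% over all genes. Counted by base, which needs no midpoint, 12.9% of the members' exonic interval bases lay in the 3′ UTR and 77.0% in the CDS, against 32.3% and 60.7%. The difference in the 3′ UTR was therefore smaller by base than by midpoint, and in the Srsf genes 23.1% of the bases lay there.

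The members' intervals often reached beyond the exons. Only a median of 50.6% of an interval's bases lay in exons of the representative transcript, against 100% over all genes, and 18 of the 81 intervals (22.2%) covered 1 or 2 whole introns, against 5.05%. These 18 intervals lay in 14 genes and 16 of them in Hnrnp genes. Of the introns of the members' representative transcripts 29.8% were shorter than 250 nt, against 15.9% over all genes. Peaks that ran past a single internal exon extended a median of 136.5 nt into each neighbouring intron in replicate 1 (34 peaks) and 124 nt in replicate 2 (23 peaks). The lists were called along the genome, so reads of spliced mRNA extended across a short exon and reads of unspliced RNA cannot be told apart in them.

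Hnrnpm shows this arrangement most fully. Its 10 shared intervals touched exons of a gene spread over chr17:33646233-33686860, and 9 of them covered no whole intron. The interval over exon 11 held 45 exonic bases among 355, that over exon 12 held 78 among 357, and that over exon 13 held 54 among 372. Fold enrichments of these 3 pairs were 3.19 and 1.50, 2.64 and 1.37, and 2.45 and 1.72 in replicates 1 and 2. The neighbouring exon 14, with 200 exonic bases among 327, had 3.30 and 1.96. A short and a longer exon of this gene thus had similar values, each higher in replicate 1.

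The members' intervals held the GGACT motif less often than intervals of other genes. GGACT on the gene's strand was present in 18 of 81 intervals (22.2%), against 42.5% over all genes, and GGAC, which includes every GGACT, in 69.1% against 81.5%. The median lengths of the intervals were 344 and 337 nt. In the exonic bases alone GGACT was found in 8 of 75 intervals (10.7%), against 37.7%. That search covered less sequence in the members, since a median of 50.6% of an interval's bases was exonic, against 100% over all genes. The part of the exonic difference that comes from the shorter sequence searched was not tested. In 9 of the 17 exon-touching intervals with GGACT the motif lay in intron or outside bases only. Over all genes 9484 intervals held GGACT and 7958 held it in exon bases, against 18 and 8 in the members. The GC content of the intervals had a median of 46.8%, against 53.7%. The members' coding sequences as a whole held 0.832 GGACT per kb, against 1.17 over all genes, and 11 of the 31 (35.5%) held none, against 28.1%. The interval share of other splicing factor genes was 29.0%.

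**Figure D4:**
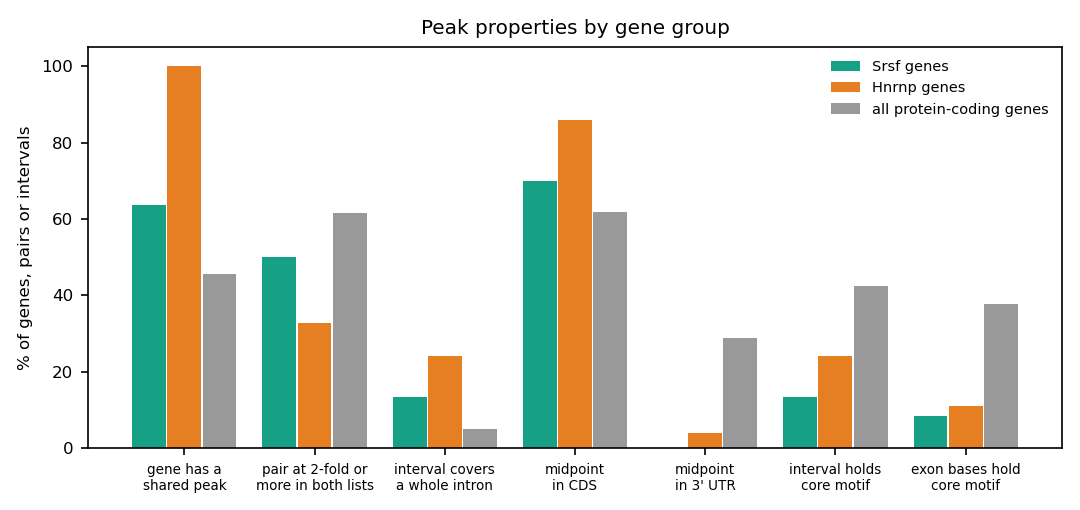
Percentage of genes, peak pairs or shared intervals with each property in Srsf genes, Hnrnp genes and all protein-coding genes, where the core motif is the 5-base motif given in the text. Both families stand above all genes for a shared peak, whole introns and CDS midpoints, and below them for pairs at 2-fold or more in both lists, 3′ UTR midpoints and the motif. The Srsf bar for the 3′ UTR is 0.

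In the Hnrnph genes GGACT recurred at a related position of coding exons. Hnrnph1, Hnrnph2 and Hnrnph3 each had a shared interval over 1 stretch of related coding sequence, and Hnrnpf, the fourth member of this G-run-binding subfamily, had its shared interval elsewhere. The stretch was found as the best ungapped match of 75 coding bases to Hnrnph1, with 64 identical bases in Hnrnph2, 69 in Hnrnph3 and 59 in Hnrnpf, where the next best match in any of the 4 genes had at most 33. The central 25 bases are shown, with capitals for the 5 bases at the place of the motif, at chr11:50381486-50381510 (Hnrnph1, plus strand, exon 5), chrX:134605332-134605356 (Hnrnph2, plus strand, exon 3), chr10:63018847-63018871 (Hnrnph3, minus strand, exon 3) and chr6:117924181-117924205 (Hnrnpf, plus strand, exon 3).
Hnrnph1: cattgccggtGGACTtccaggggag
Hnrnph2: cactgccagtGGACTttcaggggcg
Hnrnph3: cattgacgatGGACTaccaggggag
Hnrnpf: cactacctgtGGACCcggaaggcaa

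The adenosine of the core was the second base of its codon in all 4 genes. In Hnrnph1 the peak covering it was enriched 1.70-fold in replicate 1 and 1.34-fold in replicate 2. The values were 2.60 and 1.38 in Hnrnph2, and 3.06 and 1.34 in Hnrnph3. No peak of either list covered the Hnrnpf stretch, which holds GGACC. The nearest Hnrnpf peaks lay at chr6:117923808-117924125 in replicate 1 (2.97) and chr6:117923808-117924088 in replicate 2 (1.60), upstream of it in the same exon. These are 4 related genes compared after their sequences had been seen. The authors kept uniquely mapped reads only, and whether this affects the values of such related genes was not tested.

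The other 3 coding GGACT sites under shared intervals lay in Hnrnpdl, Hnrnpa0 and a second position of Hnrnph2. Hnrnpa0, a gene without introns, and Hnrnpa1, the founding member of its subfamily, held GGACT in the 3′ UTR within shared intervals, Hnrnpa0 at 2 sites and Hnrnpa1 at 1. The fourth such site was that of Srsf4, given with the strongest peaks. The Hnrnpa1 pair there had only 1.86 in replicate 1 and 1.54 in replicate 2. Hnrnpa1 is known for its many processed pseudogenes, and whether the filter for unique mapping affects its values was not tested.

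Most of the members' wholly intronic peaks lay in poison-exon introns. A poison exon was taken here as an internal exon of an annotated NMD transcript that lies wholly in an intron of the representative transcript, whether or not the premature stop codon is in that exon, and 11 of the 31 genes have one: Hnrnpd, Hnrnpdl, Hnrnpl, Hnrnpll, Srsf2, Srsf3, Srsf4, Srsf6, Srsf7, Srsf9 and Srsf11. A shared peak touched the intron holding it in 3 of the 11 (27.3%), Srsf4, Srsf11 and Hnrnpl, against 11.1% of the 1509 protein-coding genes that have such an intron. The shared interval lay wholly inside that intron in the same 3 genes, against 3.31% of the 1509. All 3 wholly intronic shared intervals of the members were in poison-exon introns and 0 in other introns. Over all genes 62 were in poison-exon introns and 1421 in others. All 3 of the members' intervals also touched an exon of another transcript of the gene, and over all genes such intervals numbered 39 and 425. Poison-exon introns are also commoner here, in 11 of 31 genes against 1509 of 21866, so these counts alone show no preference for them. With 11 genes the shares above rest on 3 of them.

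Counting each list by itself, replicate 1 had 7 wholly intronic peaks in these genes, 6 of them in poison-exon introns, and replicate 2 had 4, all in poison-exon introns. The 1 exception was the Srsf10 peak with 3.52 at chr4:135858811-135859110, in an intron of the representative transcript that also holds a cassette exon of transcripts annotated without a coding sequence. No share over all genes is given beside these per-list counts, so they describe these genes alone. The peaks are drawn in the map of poison-exon introns.

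**Figure D5:**
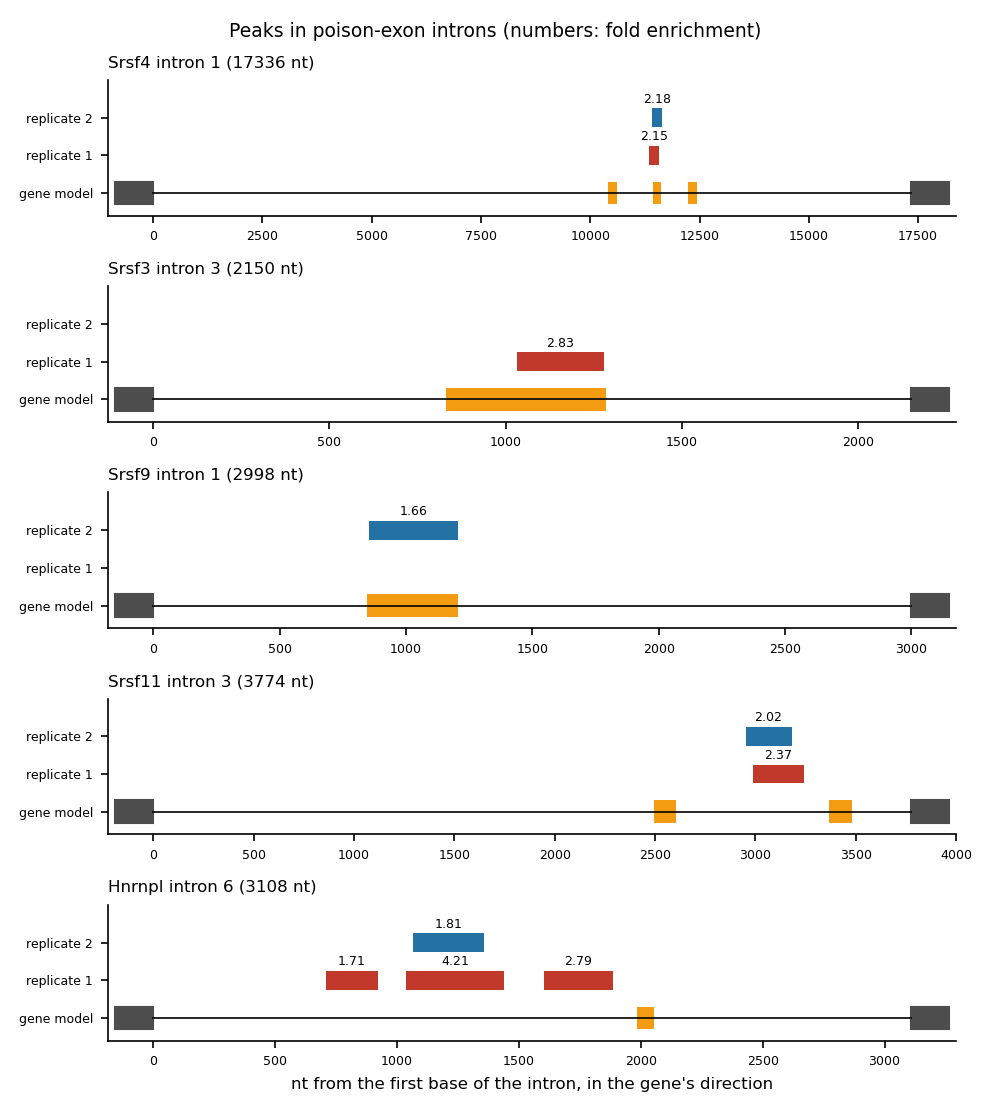
Peaks of replicate 1 and replicate 2 in 5 poison-exon introns, with fold enrichment above each peak, against the distance in nt from the first base of the intron. Orange boxes are poison exons (overlapping versions merge to the eye) and grey boxes at the ends mark the flanking exons, not to scale. The peaks of Srsf4, Srsf3 and Srsf9 overlap a poison exon, and those of Srsf11 and Hnrnpl overlap none.

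In Srsf4 both replicates had a peak over the same poison exon of intron 1 (exon at chr4:131885309-131885492, plus strand). The fold enrichment was 2.15 in replicate 1 (chr4:131885205-131885452) and 2.18 in replicate 2 (chr4:131885293-131885508). The values are nearly the same, which sets this pair apart from the Srsf4 pair over exon 6, with 6.90 and 2.98. For the NMD transcript Srsf4-203 the annotation places the premature stop codon in an earlier poison exon of this intron (chr4:131884276-131884482). The exon under the peaks lies downstream of that stop codon, and no premature stop codon is annotated within it. Srsf4 was the only member with a shared interval over the poison exon itself, against 23 of the 1509 genes.

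Srsf3 and Srsf9 each had a peak over a poison exon in 1 list. In Srsf3 the peak of replicate 1 (chr17:29039656-29039903, plus strand, 2.83) lay wholly within its poison exon of 456 nt (chr17:29039454-29039909), and replicate 2 had no peak anywhere in the gene. In Srsf9 the peak of replicate 2 (chr5:115328354-115328704, plus strand, 1.66) ended at the last base of its poison exon of 358 nt (chr5:115328347-115328704), and replicate 1 had none there. Neither position was called in both replicates.

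The start of each of these poison exons, up to and with the premature stop codon in capitals, shows where the reading frame ends relative to the peaks (mm10, strand of the gene). The stretches lie at chr17:29039454-29039487 in Srsf3 and chr5:115328347-115328428 in Srsf9. The Srsf3 peak begins downstream of the stop codon, whereas the Srsf9 peak covers it.
Srsf3 poison exon: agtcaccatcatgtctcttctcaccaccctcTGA
Srsf9 poison exon: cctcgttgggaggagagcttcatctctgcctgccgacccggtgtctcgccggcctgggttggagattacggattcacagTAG

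The Srsf9 peak held the single GGACT among the members' peaks in poison-exon introns, with its adenosine at position 115328440 of chromosome 5, just past the stop codon. It is shown with 10 bases on each side (chr5:115328428-115328452).
Srsf9 site: gaagtactccGGACTtcgatggttg

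The Srsf3 and Srsf4 peaks held no GGAC. This is a statement on these letters in these windows alone.

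In Srsf11, whose intron 3 holds 2 poison exons, the shared peak lay between them. It had 2.37 in replicate 1 (chr3:158023486-158023735, minus strand) and 2.02 in replicate 2 (chr3:158023546-158023774), while the poison exons lie at chr3:158024123-158024231 and chr3:158023243-158023359. The peaks overlap exons of transcripts annotated as retaining part of this intron. Their values were lower than those over the last exons of the gene, 7.19 and 4.06.

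In Hnrnpl, which binds CA-rich RNA, intron 6 held 3 peaks in replicate 1 and 1 in replicate 2. The shared pair had 4.21 (chr7:28816391-28816791, plus strand) and 1.81 (chr7:28816420-28816710), and it is the strongest pair of the gene. The other peaks of replicate 1 had 1.71 (chr7:28816063-28816273) and 2.79 (chr7:28816957-28817237). All of them lay upstream of the poison exon (chr7:28817335-28817404). They overlapped exons of transcripts annotated as retaining part of this intron, the last of them only by its first bases.

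The poison exons of these introns are shown up to the premature stop codon, in capitals, at chr3:158024209-158024231 and chr3:158023310-158023359 in Srsf11 (minus strand) and at chr7:28817335-28817393 in Hnrnpl (plus strand). The lower-case bases before the stop codon of Hnrnpl include GGAC, but no peak covers them.
Srsf11 first poison exon: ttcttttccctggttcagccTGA
Srsf11 second poison exon: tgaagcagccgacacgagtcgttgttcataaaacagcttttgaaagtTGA
Hnrnpl poison exon: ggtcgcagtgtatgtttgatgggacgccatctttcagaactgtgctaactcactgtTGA

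The remaining poison-exon introns had little signal. In Srsf2 and Srsf6 only a peak of replicate 2 reached into the intron from a neighbouring exon, with 1.42 and 1.50. Srsf7, Hnrnpd, Hnrnpdl and Hnrnpll had no peak over theirs in either list, although each of these 4 genes had a shared peak over other exons. Srsf7, whose shared pair lay in the 5′ UTR with 1.80 and 1.68, has a poison exon of 460 nt, close to the length of that of Srsf3.

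Srsf1, the prototype of the family, has no poison exon under this definition, since its known NMD forms arise by splicing within the 3′ UTR. Its only peaks, 2.19 in replicate 1 (chr11:88050931-88051459, plus strand) and 1.86 in replicate 2 (chr11:88050977-88051430), overlapped each other outside the representative transcript's exons, over exons of other transcripts. The GGAC within them is shown with 10 bases on each side (chr11:88051266-88051290).
Srsf1 site: agcaaagcgaGGACctggagatata

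The 67 other splicing factor genes were listed by name, with earlier results of these data known. Of them 20 have a poison-exon intron, and 7 of these (35.0%) had a shared peak touching it: Celf4, Srrm2, Srrm3, Son, Rbm25, Rbm39 and Snrnp70. Only in Srrm2, a spliceosomal scaffold protein gene, did a shared interval lie wholly inside such an intron and it covered the poison exon. The Tra2 genes encode relatives of the SR proteins with known poison exons. Tra2a had 1 peak in its poison-exon intron in replicate 1, off the poison exon, and none in replicate 2, and Tra2b had none in either list.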

How the data were processed

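m6A-seq peak lists of 2 IP samples, each called against its own input by the authors, were used. According to the study's methods, reads were trimmed, aligned to mm10 with TopHat (the submitters' processing notes name TopHat2 2.0.9, the methods another version), filtered for unique mapping, and called with MACS2 on the genome, not on transcripts. The sample sheets list total RNA, whereas the methods isolate mRNA. The deposited lists give each peak's fold enrichment (IP relative to input, linear scale) with no depth, so no test was run on them. The methods call the 2 samples biological replicates.

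Here, genes, exons and NMD transcripts came from GENCODE M21 and sequences from the RefSeq copy of GRCm38 patch 6 (the mm10 build), read with Python 3.11.15, pandas 2.3.3 and pysam 0.24.0. Overlap code was tested on simulated data against bedtools 2.31.1. Positions are 1-based. Motifs were searched on the gene's strand only. Named genes are those with a shared peak over a poison-exon intron, the 10 with the highest lower value of their strongest pair, those with most shared intervals and those without a shared peak, and, of the other splicing factors, the Tra2 genes and those with a shared peak over such an intron. Further genes and the Hnrnph stretch were named after their values were seen. Members and lists were chosen with earlier results of these data known. All comparisons are counts and medians without a test. Alternatives changed the overlap rule, a fold enrichment minimum, the transcript, the stop codon window, the motif and the poison exon definition, or left out a replicate. Protein sequences were not used here.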

Additional observations from a re-analysis of the deposited data

How the results depend on the processing

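No paired analysis was possible because no test was run, the 2 IP replicates being 1 group. Of 33 alternatives over 8 results, 18 stayed close to the main value (within 1.5 times for a count, within the spread of the pairs or the binomial interval otherwise), and 15 moved. These labels compare the members' value with itself, and 1 comparison with all genes did turn direction. With both fold enrichments at 2 or more, 17 genes instead of 27 had a shared exonic peak (8040 over all genes), 34.6% of the members' replicate 1 peaks were shared, below the 55.1% over all genes where the main value (71.2%) was above theirs (67.8%). In replicate 2 the share was 93.3% (80.1% over all genes), and the replicate 1 median was 3.41. Replicate 2 sharing was 79.1% with 50% overlap of both peaks and 78.0% with midpoints within 100 bp. Intervals near the stop codon made up 23.3% with a 400 nt window and 28.0% counting any base. Leaving out 1 replicate gave between 29 and 30 genes with a peak (10819 to 11890 over all genes) and 13.0% to 15.9% near the stop codon. It gave 4 to 6 genes with a peak over a poison-exon intron, 6 without replicate 1, where Srsf2, Srsf6 and Srsf9 entered. Over all genes this count was also higher, 241 without replicate 1 and 305 without replicate 2, against 167 in the main setting. For the members it was 5 with cassette exons of any transcript type (593 over all genes) and 1 over the poison exon itself (23 over all genes). The motif share was 69.1% for GGAC, 96.3% for DRACH (A, G or T, then A or G, then AC, then A, C or T), 7.41% for GGACT within the central 100 nt, and 10.7% for GGACT in exon bases, the last added after seeing the data. The share near the stop codon without Hnrnpm, also added later, was 13.5%. In every one of these motif and stop codon settings the members' share was below that over all genes, in some of them by little. It was 96.3% against 98.5% for DRACH and 28.0% against 34.3% counting any base near the stop codon. With a 100 nt stop codon window it was 10% against 13.0%. The exon-base setting searched a smaller part of each interval in the members. The cause was not tested. Depth is unknown and limits what a missing peak can mean.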
